A study of Homo sapiens with 8 samples.

Results

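The arrays described here compared USF1 knockdown with its own controls in H1299 cells, a human lung carcinoma cell line. All 6 arrays whose titles name USF1 were used, of 8 in the series; the other 2 belong to a separate UGT1A3 pair and entered no step. In both groups the cells were grown in RPMI-1640 medium with fetal bovine serum and transfected, and total RNA was hybridised in 1 colour to an Affymetrix PrimeView array. The USF1 knockdown group (3 arrays) received short hairpin RNAs (shRNAs) against USF1, and the USF1 control group (3 arrays) is labelled only as the control for that knockdown. The control construct, the shRNA sequences, the number of shRNAs and the time from transfection to collection are not given in the sources used here. Nothing in the labels says whether the 3 arrays of a group came from separate cultures, so each p-value reflects the spread among these 6 arrays alone, which may be technical, and the number of arrays limits the precision.

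USF1 is a transcription factor of the basic helix-loop-helix leucine zipper type. It binds the palindromic E-box CACGTG in promoters as a homodimer or paired with its close relative USF2. It is present in most tissues and is best known for genes of glucose and lipid metabolism, for stress responses and for chromatin boundaries.

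Of 49395 probe sets on the array, 44988 were annotated with 1 gene symbol and were not control probe sets. They named 18132 genes, and the brightest probe set of a gene, by its 6-array mean, stood for that gene. Genes whose mean lay under log2 5.63, the 40th percentile of probe set means, were left out as dim, which left 11448 tested genes. Arrays of the same group correlated at 0.998 to 0.999 (Pearson, across probe sets) and arrays of different groups at 0.996 to 0.997. The first principal component held 73.7% of the variance and separated the groups. On the second, with 11.7%, knockdown arrays 2 and 3 lay at opposite ends, at -7.1 and 7.28, and the other 4 arrays between -2.49 and 1.51. A change is the knockdown mean less the control mean in log2 units, SE is limma's moderated standard error, and a gene rose or fell only where limma's Benjamini-Hochberg adjusted p over all tested genes was under 0.05. In bulk RNA, fewer cells with a transcript and less of it per cell cannot be told apart.

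The targeted transcript was lower in the arrays labelled as knockdown. USF1 read 6.31, 6.55 and 6.42 in the controls and 6.06, 5.88 and 6.13 after knockdown on the log2 scale. The 3 knockdown arrays all lay below the 3 controls, and USF1 fell by 0.40 (SE 0.0823, limma adjusted p = 0.00818). This left 75.6% of the control level. It was dim, within 1 log2 unit of the limit, and was measured by 1 probe set above it. USF2 changed by -0.02 (limma adjusted p = 0.655), which did not pass.

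Markers of lung epithelium and of epithelium in general were present only in part. Among 6 epithelial markers, the keratins KRT18 and KRT8 were bright, at control means of 12.81 and 9.07, whereas EPCAM (3.44), CDH1 (4.1), KRT7 (5.34) and KRT19 (4.92) lay under the limit. Of 5 mesenchymal markers 4 were above it, led by VIM at 14.56. Of 8 lung epithelial markers 5 were above the limit, none of them bright: NAPSA (6.91), AGER (6.87), SFTPC (6.57), NKX2-1 (6.4) and FOXJ1 (6.35). SFTPA1 (3.44), SFTPB (5.4) and SCGB1A1 (3.97) were under the limit. The leukocyte marker PTPRC (3.28), the fibroblast markers COL1A1 (5.35), COL1A2 (4.75), DCN (3.96) and LUM (3.04), and the endothelial markers CDH5 (4.85), KDR (5.55) and TEK (4.3) were all under it. Of these 3 lists CD68 (9.46) was bright, and PDGFRB (5.9), PECAM1 (5.64) and VWF (5.64) lay at or just above the limit. Of the marker genes tested, KRT8 (0.25), CDH2 (0.28) and FN1 (0.23) rose and ZEB1 (-0.10) fell, calls lost in 8 of 15 alternatives for ZEB1 and 5 for FN1; no lung epithelial, leukocyte, fibroblast or endothelial marker passed.

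Many genes moved, nearly all by small amounts. Of 11448 tested genes 4657 passed (40.7%), 2515 up (22%) and 2142 down (18.7%), with a median size of 0.217 among those that passed against a median spread within groups of 0.0502 (SD). Only 194 (1.69%) passed at 1.5-fold or more, and here falls outnumbered rises: 136 fell (1.19%) and 58 rose (0.507%). At 2-fold or more, 22 fell and 5 rose. Genes named below beyond the largest changes of a list, and partners within complexes, were picked for their role after their values were seen. The knockdown arrays lay wholly above or wholly below the controls for all 194 of these genes, but also for 53.6% of all tested genes, so that separation alone marks no gene out. The call was scarcer among dim genes: in the dimmest of 4 groups of equal size by brightness 12.5% rose and 9.12% fell, against 27.3% and 24.2% in the third.

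**Figure D1:**
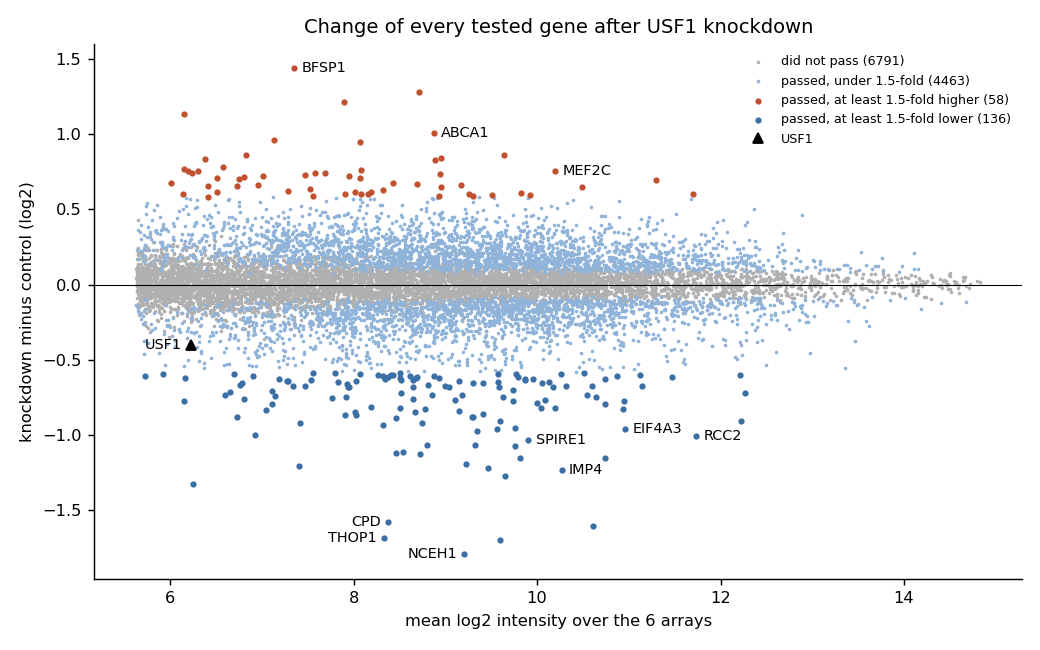
Change of each of 11448 tested genes (knockdown minus control, log2, vertical) against its mean log2 intensity over the 6 arrays (horizontal). Grey points did not pass, pale blue points passed under 1.5-fold, red points (58) rose and dark blue points (136) fell by 1.5-fold or more; the triangle is USF1, at -0.40, and the lowest point is NCEH1, at -1.80.

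The genes were sorted into 123 families in 14 classes. Together with the marker lists these hold 5210 of the tested genes, and a gene can sit in more than 1 family. The classes did not share 1 balance of rises and falls. RNA handling and translation was the class with most falls relative to rises, with 82 genes up and 184 down of 640 (12.8% and 28.7%, median -0.035, against a median of 0.011 over all tested genes). The class of mitochondria and peroxisomes had 32 up and 50 down of 177. Its mitochondrial lists leaned down, but its peroxisome list had 14 up and 5 down of 43. Cytoskeletal genes rose more often than they fell, at 112 up and 51 down of 374 (29.9% and 13.6%). So did secreted and surface signalling genes, at 88 up and 40 down of 313, and trafficking genes, at 80 up and 47 down of 301. Transcription factors were called less than the background, at 33.2% of 723. Of 98 families with 20 or more tested members, 12 had at least 2 falls for each rise and 23 at least 2 rises for each fall. The counts of each list below stand against 22% up and 18.7% down over all tested genes.

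**Figure D2:**
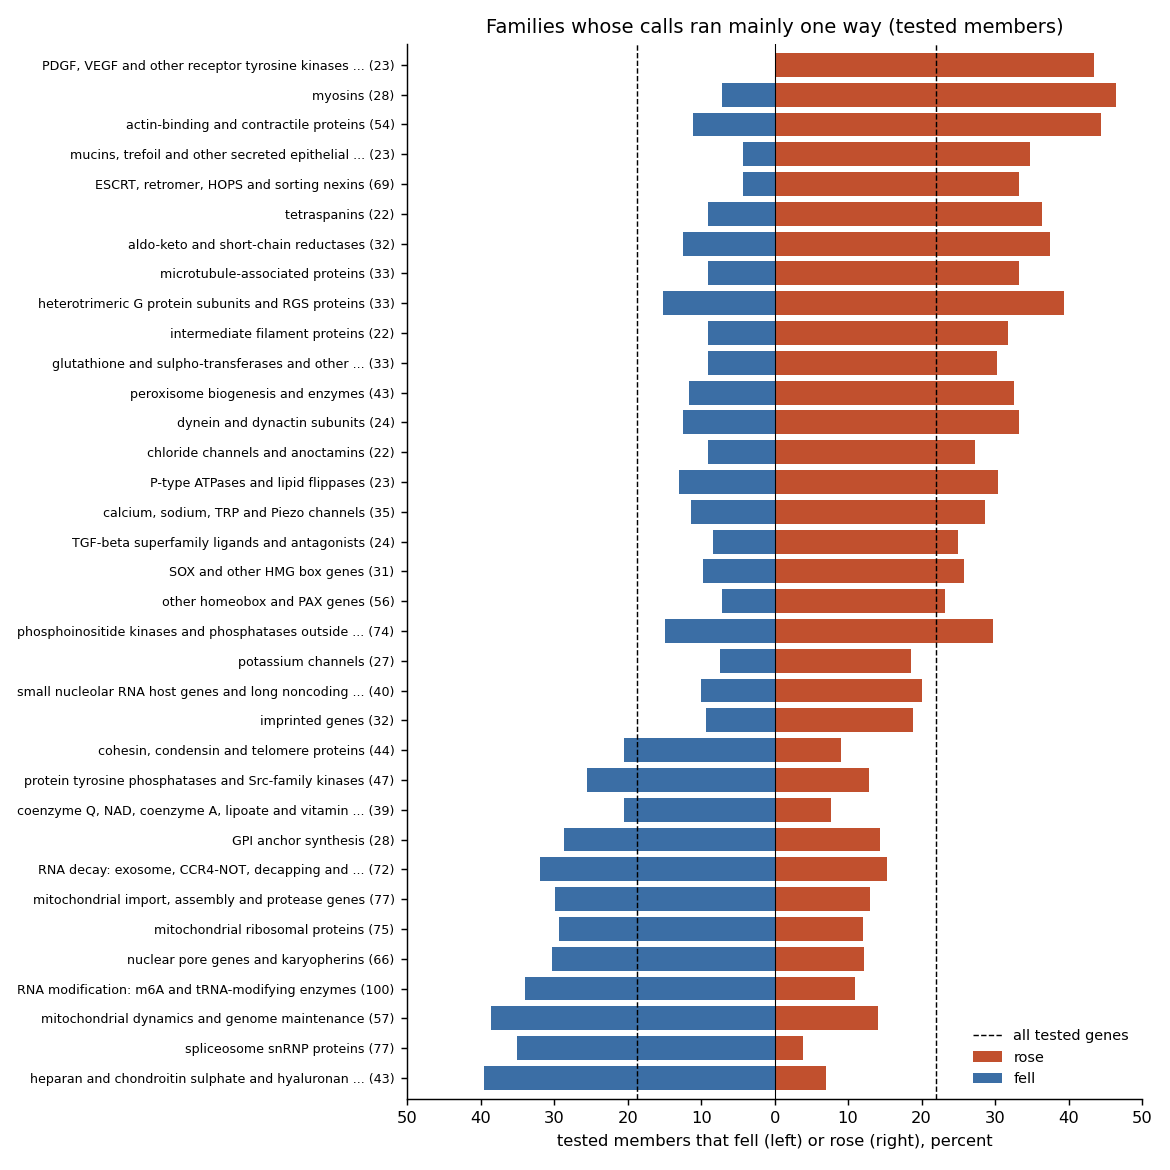
Percent of tested members that fell (blue, left) and rose (red, right) in the 35 families with 20 or more tested members and at least a 2 to 1 ratio of calls; the number tested is in brackets and the dashed lines mark all tested genes (18.7% fell, 22% rose). Heparan and chondroitin sulphate genes (17 fell, 3 rose) and spliceosome proteins (27 fell, 3 rose) stand at the bottom, and the list of PDGF, VEGF and other receptor tyrosine kinases (10 rose, 0 fell), which leaves out the EGF, FGF and Eph lists, at the top.

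Since USF1 binds CACGTG, promoters were read for this motif. RefSeq promoters (GRCh38.p14), each 250 bases before to 50 after a gene's start, were matched by symbol to 9443 of the tested genes. The motif reads the same on both strands, and it lay in 7.41% of all 27305 promoters and 10.4% of those of tested genes. Among genes that fell 232 of 1768 held it (13.1%), among genes that rose 217 of 2137 (10.2%), and among genes that did not pass 531 of 5538 (9.59%). At 1.5-fold or more the shares were 13 of 112 that fell (11.6%) and 3 of 48 that rose (6.25%). The genes with a promoter were split anew into 4 groups of near-equal size by brightness. In 3 of these the share was higher in genes that fell than in genes that rose. They were the dimmest (9.91% against 6.53%), the second (14.8% against 9.97%) and the brightest (13.6% against 8.89%). In the third group the share was lower, at 12.6% against 13.4%. Most genes that fell therefore held no CACGTG in this window, which says nothing of sites elsewhere.

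**Figure D3:**
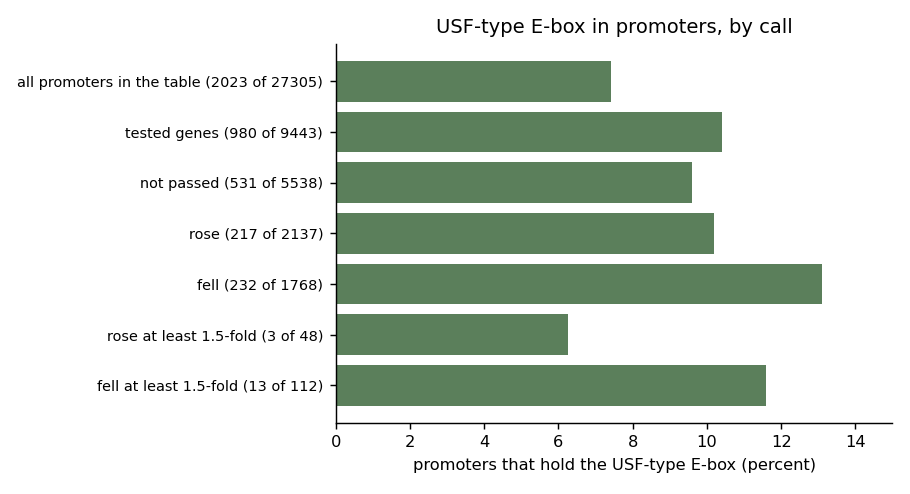
Percent of promoters (horizontal, starting at 0) that hold CACGTG in the 300 bases around the start, for all promoters of the table and for tested genes by call; the counts are in brackets. Genes that fell stand at 13.1% and genes that did not pass at 9.59%.

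Promoters of 3 genes that fell and 1 that rose, all by 1.5-fold or more, are shown because they hold the motif in very different numbers and places; they were picked after the values were seen. Each promoter is written 5' to 3' on its gene's strand, with CACGTG in capitals. LAMP1, a lysosomal membrane glycoprotein, lies on the plus strand of chromosome 13 (window 113296989 to 113297288) and has 6 copies, starting 192, 176, 159, 142, 28 and 1 bases before the start. IMP4, part of the small-subunit processome of the nucleolus, is on the plus strand of chromosome 2 (130342647 to 130342946) with 2 copies. DHDDS, a subunit of the enzyme that makes the dolichol lipid for N-glycans, is on the plus strand of chromosome 1 (26432071 to 26432370) with 2. ABCA1, which exports cholesterol, is on the minus strand of chromosome 9 (104928106 to 104928405) with 1.
LAMP1: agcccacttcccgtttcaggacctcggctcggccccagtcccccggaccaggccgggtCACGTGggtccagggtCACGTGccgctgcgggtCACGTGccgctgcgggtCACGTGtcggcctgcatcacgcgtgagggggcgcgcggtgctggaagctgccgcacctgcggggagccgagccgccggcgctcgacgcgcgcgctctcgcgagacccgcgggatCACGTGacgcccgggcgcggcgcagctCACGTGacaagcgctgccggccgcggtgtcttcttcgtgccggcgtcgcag
IMP4: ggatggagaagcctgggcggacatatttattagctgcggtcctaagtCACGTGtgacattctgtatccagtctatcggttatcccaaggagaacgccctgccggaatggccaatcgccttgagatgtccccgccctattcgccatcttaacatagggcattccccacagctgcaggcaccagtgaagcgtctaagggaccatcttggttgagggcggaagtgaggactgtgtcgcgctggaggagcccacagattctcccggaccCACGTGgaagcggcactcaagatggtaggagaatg
DHDDS: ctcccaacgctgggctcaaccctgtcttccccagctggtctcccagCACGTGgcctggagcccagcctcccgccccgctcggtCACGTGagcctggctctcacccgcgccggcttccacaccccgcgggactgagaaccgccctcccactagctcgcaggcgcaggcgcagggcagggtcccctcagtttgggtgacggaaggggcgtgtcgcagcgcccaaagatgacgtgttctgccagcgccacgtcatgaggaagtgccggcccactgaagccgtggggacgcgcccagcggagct
ABCA1: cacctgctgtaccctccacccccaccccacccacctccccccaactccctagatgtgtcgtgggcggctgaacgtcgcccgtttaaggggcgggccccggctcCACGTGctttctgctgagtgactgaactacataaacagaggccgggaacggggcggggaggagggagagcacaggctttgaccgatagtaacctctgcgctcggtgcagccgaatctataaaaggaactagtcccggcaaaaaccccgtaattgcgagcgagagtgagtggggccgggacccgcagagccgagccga

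LAMP1 read 11.13, 11.14 and 11.13 in the controls and 10.38, 10.32 and 10.32 after knockdown. It fell by 0.80, and all 3 of its bright probe sets fell. Its paralogue LAMP2 changed by -0.03 and did not pass. IMP4 read 10.87, 10.89 and 10.90 in the controls and 9.73, 9.63 and 9.60 after knockdown, a fall of 1.24 (SE 0.0401, limma adjusted p = 1.51e-05). DHDDS fell by 0.75 on its brightest probe set, and its other bright probe set, at -0.15, did not pass. ABCA1 read 8.44, 8.26 and 8.40 in the controls and 9.37, 9.48 and 9.28 after knockdown and rose by 1.01. The groups did not overlap in any of the 4, nor in 53.6% of all tested genes. More copies did not go with one direction. Genes with 2 or more copies had 32 rises and 24 falls of 108 (29.6% and 22.2%). Genes with 1 copy had 185 and 208 of 872 (21.2% and 23.9%), and genes with 0 copies 1920 and 1536 of 8463 (22.7% and 18.1%). The share that passed either way was 40.8% with 0 copies, 45.1% with 1 and 51.9% with 2 or more, a difference that was not tested. Among other promoter motifs, the CCAAT box (CCAAT, either strand) lay in 48.2% of the genes that fell by 1.5-fold or more, but in 37.2% of all that fell, 38.1% of all that rose, 37.1% of tested genes and 35.7% of all promoters. TCACGTG (either strand), which contains CACGTG, lay in 9.82%, 6.84%, 6.64%, 6.05% and 3.82% of the same groups. A match is a description of the sequence, not a bound site.

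Spliceosome proteins fell widely and by little. Of 77 tested snRNP and spliceosome genes 27 fell and 3 rose, with a median of -0.056. The falls sat in the U5 proteins EFTUD2 (-0.58) and PRPF8 (-0.33), in the Sm and LSm ring proteins SNRPD1 (-0.42), SNRPF (-0.14), SNRPE (-0.12) and LSM2 (-0.55), and in the U2 factors SF3A1 (-0.27) and SF3B3 (-0.15). LSM14A (-0.37) was counted by its name but is a cytoplasmic P-body protein. EFTUD2, the GTPase of the U5 particle, read 10.69, 10.72 and 10.72 in the controls and 10.16, 10.16 and 10.07 after knockdown, and all 3 of its bright probe sets fell. SNRNP200, the helicase of the same particle, changed by 0.00 and did not pass. In the list of 77 the rises were CWC15 (0.14), SNRNP35 (0.14) and CDC5L (0.10). The calls of SNRNP35 and CDC5L were lost in 6 of 14 and 6 of 15 alternatives.

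Other RNA-binding proteins gave larger single falls. EIF4A3, the helicase that anchors the exon junction complex on spliced messages, read 11.42, 11.45 and 11.45 in the controls and 10.49, 10.50 and 10.45 after knockdown and fell by 0.96 (SE 0.028, limma adjusted p = 1.02e-05). Its core partners MAGOH (0.01) and RBM8A (-0.07) did not pass, and CASC3 fell by 0.16. SR proteins, hnRNPs and splicing regulators had 14 rises and 22 falls of 96, and between 7 and 9 rises without control replicate 1, 2 or 3 or without knockdown replicate 1 or 2. They included HNRNPA0 at -0.74 (its second bright probe set, at -0.01, did not pass), PTBP3 at -0.56 and, up, HNRNPDL at 0.57. Of 45 DEAD and DEAH box helicases 7 rose and 11 fell, led by DDX54 (-0.77). Outside these lists, the falls included USB1, which trims the end of U6 RNA (-0.89), and THOC1 of the THO export complex (-0.63).

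Enzymes that modify RNA fell in 34 of 100 cases and rose in 11 (median -0.059). The falls included the queuine transferase subunit QTRT2 (-0.52), the dihydrouridine synthase DUS3L (-0.44), the mitochondrial tRNA methyltransferase TRMT61B (-0.41), the pseudouridine synthase PUS1 (-0.32) and the m6A writer METTL3 (-0.22). METTL9, the largest fall of the list (-0.68), is a protein histidine methyltransferase and no RNA enzyme. ADAT2 and ADAT3 together form the adenosine deaminase of the tRNA wobble position, and they moved apart. ADAT2 read 8.33, 8.25 and 8.20 in the controls and 7.79, 7.86 and 7.74 after knockdown and fell by 0.47, whereas ADAT3 read 7.70, 7.86 and 7.81 in the controls and 8.19, 8.15 and 8.23 after knockdown and rose by 0.40.

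RNA decay genes had 11 rises and 23 falls of 72, and 7 and 17 without control replicate 1. The 3 TNRC6 scaffold proteins, which link Argonaute to deadenylases in microRNA silencing, did not move together. TNRC6A read 10.24, 10.06 and 10.18 in the controls and 10.80, 10.84 and 10.78 after knockdown and rose by 0.65 on all 4 of its bright probe sets. TNRC6C read 6.53, 6.52 and 6.32 in the controls and 5.75, 6.14 and 5.98 after knockdown and fell by 0.50, near the dim limit, and TNRC6B fell by 0.15. Of the Argonautes AGO2 (-0.27), AGO4 (-0.20) and AGO1 (-0.16) fell, and DICER1 (0.18) rose. The calls of TNRC6B, AGO4 and AGO1 were each lost in 5 of 15 alternatives. The decapping enzyme DCP2 (0.55) rose, and the exosome nuclease DIS3 (-0.24) fell.

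Transport between nucleus and cytoplasm and translation leaned the same way. Nuclear pore genes and karyopherins had 8 rises and 20 falls of 66 (5 rises without control replicate 1, without control replicate 3 or without knockdown replicate 1), led by the inner-ring scaffold NUP188, which read 10.13, 10.11 and 10.15 in the controls and 9.35, 9.39 and 9.32 after knockdown and fell by 0.77. Its paralogue NUP205 fell by 0.30, and the ring proteins NUP93 (-0.08) and NUP155 (-0.10) did not pass. RCC1, the exchange factor for Ran, rose (0.42), and RCC2, a mitotic protein with a related fold, read 12.22, 12.23 and 12.26 in the controls and 11.26, 11.19 and 11.23 after knockdown and fell by 1.01. Translation initiation and elongation factors had 12 rises and 22 falls of 75. They had 7 and 13 without control replicate 1, 6 and 13 without control replicate 3, and 7 and 16 without knockdown replicate 1. General transcription factors and RNA polymerase subunits had 17 rises and 27 falls of 103 (9 and 18 without control replicate 1, 11 and 21 without control replicate 2), with TAF15 at -0.60, TAF1A at -0.53 and the largest polymerase I subunit POLR1A at -0.38.

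**Figure D4:**
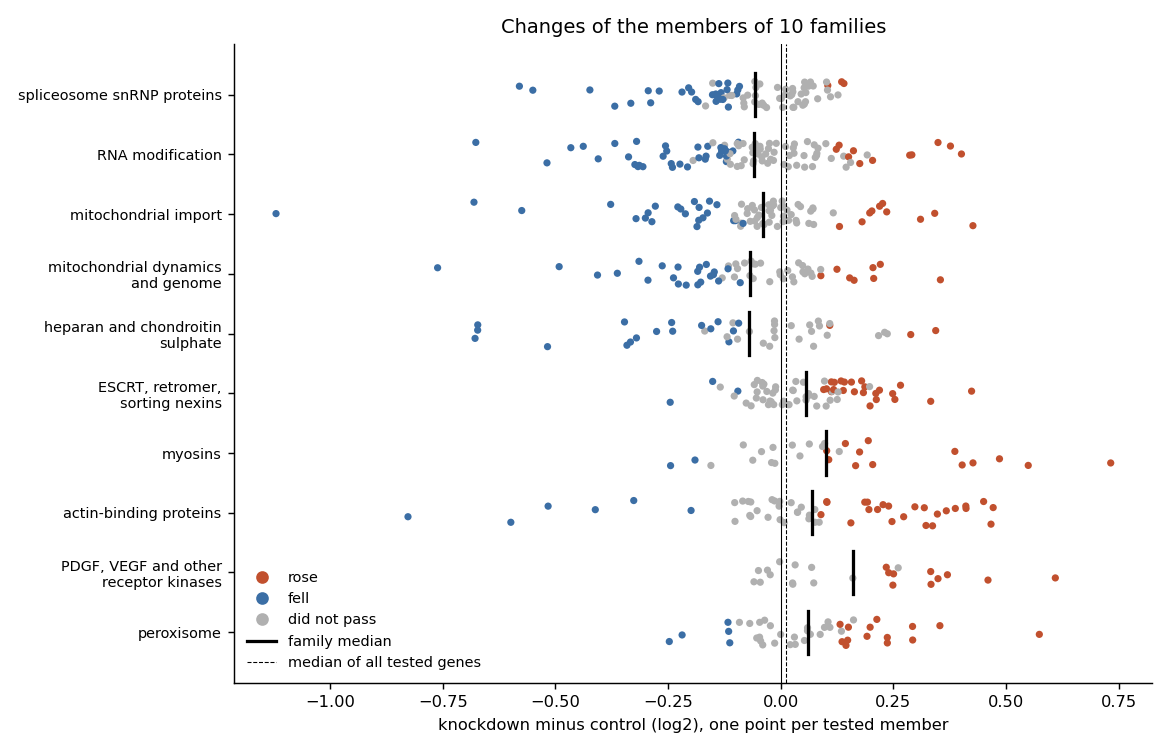
Changes (log2, horizontal) of the tested members of 10 families, 1 point a gene, red where it rose, blue where it fell and grey where it did not pass; the black bar is the family median and the dashed line the median of all tested genes, 0.011. Medians run from -0.07 for heparan and chondroitin sulphate genes to 0.16 for the list of PDGF, VEGF and other receptor tyrosine kinases, and single genes such as CHCHD4 (-1.12) stand far from their family.

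Several lists of mitochondrial upkeep fell more often than they rose. Import, assembly and protease genes had 10 rises and 23 falls of 77, dynamics and genome maintenance 8 and 22 of 57 (5 and 20 without control replicate 1 or without knockdown replicate 1), and mitochondrial ribosomal proteins 9 and 22 of 75. CHCHD4, the oxidoreductase that traps proteins in the intermembrane space, read 9.04, 9.09 and 8.94 in the controls and 7.87, 7.93 and 7.91 after knockdown and fell by 1.12 (SE 0.0461, limma adjusted p = 2.93e-05) on both bright probe sets. Its partners moved less and not one way: AIFM1, which brings it into mitochondria, fell by 0.15, and GFER, which reoxidises it, rose by 0.16. The nucleotide exchange factors of the matrix chaperone, GRPEL2 (-0.68) and GRPEL1 (-0.38), both fell. TWNK, the helicase of mitochondrial DNA, read 8.96, 9.06 and 9.07 in the controls and 8.28, 8.31 and 8.22 after knockdown and fell by 0.76, on both probe sets. The other genome proteins TFB2M (-0.29), SSBP1 (-0.24) and POLG2 (-0.18) fell, and POLG (-0.10), POLRMT (-0.07) and TFAM (0.04) did not pass.

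Fission and fusion genes were split. DNM1L (-0.18) and OPA1 (-0.15) fell, and MFN2 (0.09), FIS1 (0.12) and MIGA1 (0.35) rose. The calls of MFN2, OPA1 and FIS1 were lost in 8, 6 and 5 of 15 alternatives. The ribosomal proteins changed little: the largest fall was MRPL3 (-0.28) and the largest rise MRPL54 (0.45). QRSL1, the catalytic subunit that makes glutaminyl-tRNA in mitochondria, read 10.04, 10.09 and 9.99 in the controls and 9.07, 9.11 and 9.05 after knockdown and fell by 0.96. Its partner subunits GATB (0.09) and GATC (0.07) did not pass. The coenzyme Q protein RTN4IP1 (-0.73) and the mitochondrial methionyl-tRNA synthetase MARS2 (-0.72) fell as well. In contrast the uncoupling protein UCP2 read 9.58, 9.65 and 9.66 in the controls and 10.30, 10.16 and 10.21 after knockdown and rose by 0.59. Peroxisome genes leaned up, with 14 rises and 5 falls of 43 (2 falls without control replicate 1 or without knockdown replicate 3, and 3 without control replicate 3 or without knockdown replicate 1), led by CROT, which moves chain-shortened acyl groups onto carnitine (0.57), and the membrane channel PXMP2 (0.35).

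Genes of proteoglycans fell far more often than they rose. Of 43 heparan sulphate, chondroitin sulphate and hyaluronan genes 17 fell and 3 rose (median -0.07); without control replicate 3, 10 fell and 3 rose. Core proteins, chain builders and sulphotransferases were all among the falls. SDC4, a syndecan that carries heparan sulphate at the cell surface, read 10.68, 10.66 and 10.63 in the controls and 9.95, 10.05 and 9.95 after knockdown and fell by 0.67 on all 3 probe sets. SDC1 fell by 0.67, although only 1 of its 3 bright probe sets passed, and SDC3 (-0.07) did not pass. EXTL2, a glycosyltransferase of the linker region, read 9.86, 9.94 and 9.95 in the controls and 9.25, 9.22 and 9.25 after knockdown and fell by 0.68 on all 4 probe sets. EXT2 (-0.18), XYLT2 (-0.24), the epimerase GLCE (-0.28), HS6ST1 (-0.52) and HS2ST1 (-0.16) fell, and so did CHST11 (-0.35) and the hyaluronan synthase HAS3 (-0.34). The call of HS2ST1 was lost in 5 of 15 alternatives. The rises were GPC6 (0.34), CHST3 (0.29) and CHPF2 (0.11), the last a call lost in 8 of 15 alternatives.

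Other steps of the secretory path gave single large falls within mixed lists. N-glycan assembly had 8 rises and 13 falls of 48, with the glucosyltransferase ALG10B at -0.82 and DHDDS beside it. NUS1, the partner of DHDDS, changed by -0.10 and did not pass. LMAN1, the lectin that carries glycoproteins from the endoplasmic reticulum to the Golgi, read 10.24, 10.19 and 10.28 in the controls and 9.36, 9.27 and 9.21 after knockdown and fell by 0.96 (SE 0.0459, limma adjusted p = 4.09e-05). All 5 of its bright probe sets fell, and its partner MCFD2 rose by 0.09, a call lost in 10 of 15 alternatives. Within the COPI, COPII and p24 list 11 rose and 11 fell of 44, with 6 rises without control replicate 1 or without control replicate 3 and 7 without knockdown replicate 1 or without knockdown replicate 2. GPI anchor genes had 4 rises and 8 falls of 28, led by PIGW (-0.50). UAP1, which makes the UDP-N-acetylglucosamine used in these pathways, fell by 0.60.

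Actin-binding proteins and myosins rose more often than they fell, which did not extend to kinesins, with 5 rises and 5 falls of 37 (median -0.01). Actin-binding and contractile proteins had 24 rises and 6 falls of 54 (median 0.07) and myosins 13 and 2 of 28 (median 0.1); with the mean of all probe sets per gene, 7 myosins rose and 2 fell. The rises included the actin-sequestering thymosins TMSB4X (0.47) and TMSB15A (0.47), the calponins CNN2 (0.45) and CNN3 (0.27), smooth muscle actin ACTA2 (0.41), the tropomyosin TPM1 (0.41) and the severing protein GSN (0.39). The call of TMSB15A was lost in 5 of 14 alternatives. All 3 class V cargo myosins rose, MYO5B most, from 7.07, 7.10 and 7.13 in the controls to 7.77, 7.85 and 7.87 after knockdown on the log2 scale (0.73), then MYO5C (0.40) and MYO5A (0.20). The light chain MYL9 rose by 0.39 and the heavy chain MYH10 fell by 0.24. MYLIP (0.17), counted by its name, is a ubiquitin ligase.

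Some actin regulators fell by more than any of these rose. SPIRE1, which nucleates actin filaments, read 10.39, 10.42 and 10.44 in the controls and 9.40, 9.44 and 9.31 after knockdown and fell by 1.03 on all 5 bright probe sets. CTTN, the Arp2/3 cofactor cortactin, read 11.29, 11.37 and 11.38 in the controls and 10.56, 10.47 and 10.54 after knockdown and fell by 0.83, and TMOD3 (-0.60) and COTL1 (-0.52) fell too. Actin nucleators as a list had 8 rises and 5 falls of 36, and 3 falls when any array but knockdown replicate 2 was left out. Microtubule-associated proteins had 11 rises and 3 falls of 33, with MAP7 at 0.38, and dynein and dynactin subunits 8 and 3 of 24 (5 and 2 without control replicate 1). TUBE1, a centriolar tubulin, read 8.79, 8.78 and 8.80 in the controls and 7.83, 7.95 and 7.79 after knockdown and fell by 0.93, while TUBD1, the other centriolar tubulin, rose by 0.33. Of 22 intermediate filament genes 7 rose and 2 fell, among them BFSP1, a filament protein of the lens (1.44), and the nuclear lamins LMNB1 (0.59, on all 4 probe sets) and LMNA (0.41).

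Endosome sorting genes rose more often than they fell, by small amounts, and most did not pass. ESCRT, retromer, HOPS and sorting nexin genes had 23 rises and 3 falls of 69, with 43 not passing (median 0.056), and 13 rises and 2 falls without control replicate 1, 15 and 2 without control replicate 2, and 14 and 3 without knockdown replicate 1. Rises were found in retromer and its nexins (VPS29 0.10, SNX1 0.20, SNX2 0.10, SNX6 0.18), in other sorting nexins (SNX16 0.42, SNX4 0.33) and in ESCRT (VPS25 0.22, IST1 0.21, CHMP4B 0.19). The falls were SNF8 (-0.25), VPS26B (-0.15) and CHMP5 (-0.10). The calls of VPS29, SNX2 and CHMP5 were lost in 9, 9 and 11 of 15 alternatives. Clathrin and adaptor genes were mixed, with 14 rises and 10 falls of 51 (6 falls without control replicate 3 or without knockdown replicate 1), including the adaptor EPN1 (-0.60).

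**Figure D5:**
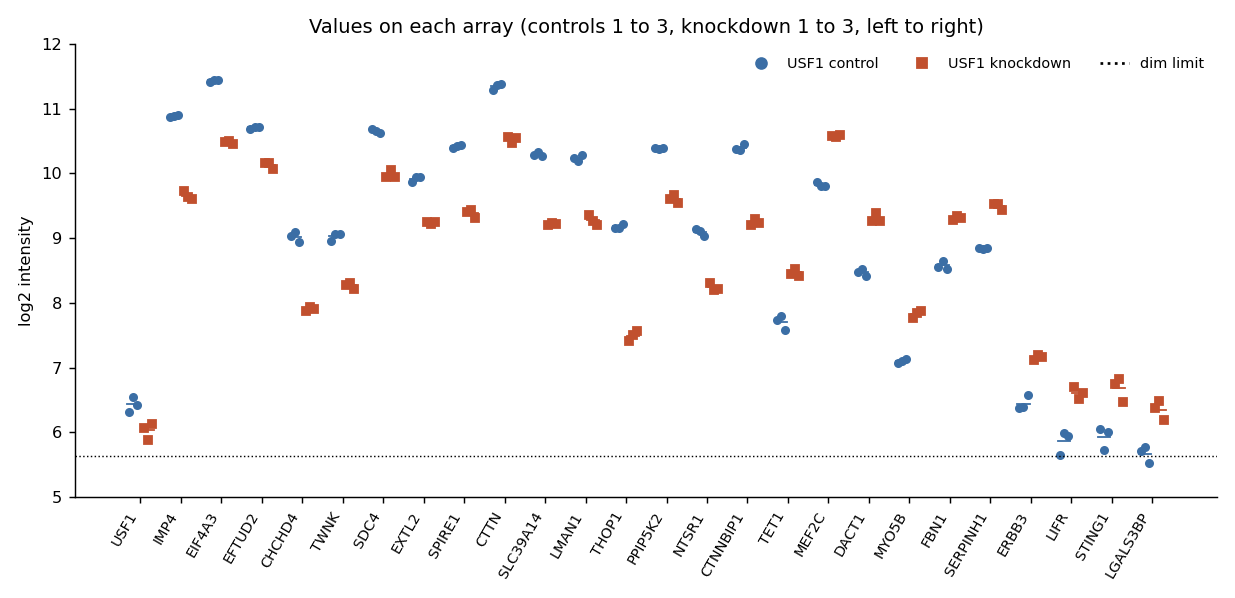
Log2 intensity on each of the 6 arrays for 26 genes, controls 1 to 3 as blue circles and knockdown 1 to 3 as red squares, with a short line at each group mean; the dotted line is the dim limit, 5.63. The 2 groups do not overlap for any of these genes, which was required of those named at 1.5-fold or more and held for 53.6% of all tested genes. LIFR, STING1 and LGALS3BP start close to the limit.

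Receptor tyrosine kinases and their ligands differed by list. In the list of PDGF, VEGF and other receptors and ligands outside the EGF, FGF and Eph lists, 10 of 23 rose and 0 fell. The background was 22% up, and at an unadjusted p under 0.05 limma gave 10 rises and 0 falls. The list is not complete. PDGFRB, counted among the fibroblast markers, changed by 0.04 and did not pass, and IGF1R, ROR1 and RYK were counted in other lists. DDR1, a collagen receptor, read 9.54, 9.58 and 9.46 in the controls and 10.05, 10.20 and 10.15 after knockdown and rose by 0.61 on all 3 probe sets. TYRO3 (0.37), AXL (0.25) and MERTK (0.24), the 3 TAM receptors, all rose, as did their ligand GAS6 (0.25). Among growth factors KITLG (0.46), MDK (0.35), VEGFB (0.33), VEGFC (0.33) and PDGFC (0.23) rose. FGF ligands and receptors had 2 rises and 3 falls of 10, and ephrins and Eph receptors 2 and 1 of 12. Without control replicate 1, and also without control replicate 3, these became 1 and 2 for FGF genes and 1 and 0 for Eph genes. The EGF family had 5 rises and 2 falls of 10. Its receptor ERBB3 read 6.37, 6.39 and 6.57 in the controls and 7.11, 7.20 and 7.17 after knockdown and rose by 0.72; TGFA (0.36) and NRG1 (0.30) rose, and HBEGF (-0.37) and the receptor inhibitor ERRFI1 (-0.55) fell.

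Semaphorins, plexins and neuropilins, which guide axons and other cells, had 7 rises and 0 falls of 19, and Slit, Robo, netrin and teneurin genes 3 and 0 of 9; at an unadjusted p under 0.05 limma gave the first list 7 rises and 2 falls and the second 4 and 0. SEMA3A, a secreted repellent, read 7.90, 7.90 and 7.85 in the controls and 8.37, 8.57 and 8.31 after knockdown and rose by 0.53, and SEMA3E rose by 0.38 and the receptor PLXNB2 by 0.30. Cytokine receptors moved singly. LIFR, the receptor for leukaemia inhibitory factor, read 5.65, 5.99 and 5.95 in the controls and 6.70, 6.51 and 6.61 after knockdown and rose by 0.74 from close to the dim limit. IFNAR1, a chain of the type I interferon receptor, read 9.49, 9.49 and 9.42 in the controls and 8.84, 8.88 and 8.76 after knockdown and fell by 0.64 on all 4 probe sets.

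G protein-coupled receptors outside the adhesion type had 16 rises and 9 falls of 55, or 8 and 5 when genes under the 60th percentile were also left out as dim. The falls included NTSR1, the neurotensin receptor, which read 9.14, 9.11 and 9.03 in the controls and 8.31, 8.20 and 8.21 after knockdown and fell by 0.85 (limma adjusted p = 5.51e-05). The orphan receptors GPR155 (-0.62) and GPR176 (-0.62) fell, and GPR137C (0.59), GPR158 (0.58) and GPRC5B (0.58) rose. GPER1, which is not in the list, rose by 0.60. HTR3D, counted in the list by its name, is a subunit of a ligand-gated channel. G protein subunits and RGS proteins had 13 rises and 5 falls of 33, with RGS5 at 0.50 and RGS3 at -0.35.

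Secreted and pericellular proteins moved in both directions, with more rises than falls in 2 small lists. Plasminogen activation and serpins had 7 rises and 1 fall of 11 (median 0.19), and 4 and 1 without control replicate 2 or without control replicate 3. SERPINH1, the collagen chaperone HSP47, read 8.84, 8.83 and 8.85 in the controls and 9.53, 9.53 and 9.44 after knockdown and rose by 0.66 on all 3 probe sets; PLAT (0.29) rose and PLAU (-0.21) fell, the 2 plasminogen activators. Secreted epithelial proteins had 8 rises and 1 fall of 23, with 14 not passing, led by LGALS3BP, which read 5.71, 5.78 and 5.53 in the controls and 6.37, 6.49 and 6.19 after knockdown with its controls near the dim limit (0.67), then LGALS3 (0.50) and MUC15 (0.50). The fall was SPINT2, an inhibitor of serine proteases (-0.63). FBN1, the microfibril protein fibrillin, read 8.56, 8.64 and 8.52 in the controls and 9.28, 9.34 and 9.31 after knockdown and rose by 0.73, and IGFBP6 (0.72), TGFBI (0.62) and the clotting inhibitor TFPI (0.60) rose. Other secreted proteins fell: the collagenase MMP1 (-1.70), the neuropeptide precursor VGF (-0.82), the cytokine LIF (-0.67) and the growth factor BMP6 (-0.59). Tetraspanins had 8 rises and 2 falls of 22, and 4 and 2 without control replicate 1 or without knockdown replicate 1, and 5 and 2 without control replicate 3; CD82 (0.84), TSPAN6 (0.32) and CD63 (0.27) rose and TSPAN17 (-0.41) fell.

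Transcription factors moved in both directions. KRAB-type and other ZNF genes, the largest list, had 41 rises and 67 falls of 370 (11.1% and 18.1%), from ZNF667 (-0.71) to ZNF114 (0.58). The share that fell was near the 18.7% of all tested genes, and the share that rose was under their 22%. Homeobox and PAX genes outside the HOX clusters had 13 rises and 4 falls of 56, but their largest changes were the falls of HLX (-0.74) and SIX4 (-0.68). MEF2C, a muscle and neural lineage factor, read 9.86, 9.80 and 9.81 in the controls and 10.58, 10.56 and 10.59 after knockdown and rose by 0.76 on all 4 probe sets. ZBTB20 (0.63) and ZBTB42 (0.60) rose, and CEBPG (-0.55), a partner of other C/EBP factors, fell with CEBPB (-0.62). Among genes at 1.5-fold or more, 2 enzymes of active DNA demethylation moved apart. TET1, one of the enzymes that oxidise methylcytosine, read 7.74, 7.79 and 7.58 in the controls and 8.45, 8.53 and 8.42 after knockdown and rose by 0.76. TDG, which excises the oxidised base, read 10.01, 10.10 and 10.03 in the controls and 9.17, 9.13 and 9.11 after knockdown and fell by 0.91. Other TET enzymes are not reported here.

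Peptidases held a pair of the larger falls beside many small changes. Of 40 metallocarboxypeptidases, aminopeptidases and oligopeptidases 8 rose and 13 fell. THOP1, which cuts short peptides such as neurotensin, read 9.16, 9.15 and 9.22 in the controls and 7.41, 7.50 and 7.56 after knockdown and fell by 1.69 (SE 0.0437, limma adjusted p = 7.06e-06). CPD, a carboxypeptidase of the trans-Golgi, read 9.23, 9.11 and 9.15 in the controls and 7.50, 7.67 and 7.58 after knockdown and fell by 1.58; its 4 bright probe sets ranged from -1.58 to -0.16, and 3 fell. The aminopeptidase XPNPEP1 fell by 0.51, and the antigen-trimming ERAP1 (0.25) and ERAP2 (0.27) rose. Cullin, F-box and related ubiquitin adaptors had 28 rises and 28 falls of 145, the TRIM, RNF and MARCHF ligases 31 and 19 of 121, and the HECT ligases 9 and 6 of 29. Among these and related genes DCAF16 (-0.83), RNF121 (-0.74), HACE1 (-0.61) and the deubiquitinase OTUD3 (-0.61) fell, and FBXO2 (0.67) and UBE2L6 (0.64) rose.

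Among signalling lipids and inositol phosphates, 22 genes rose and 11 fell of 74, and 14 rose and 10 fell without control replicate 2. The kinases that make inositol pyrophosphates were among the falls: PPIP5K2 read 10.40, 10.38 and 10.40 in the controls and 9.60, 9.67 and 9.54 after knockdown and fell by 0.79, and PPIP5K1 (-0.33) and IP6K1 (-0.48) fell. IP6K2 rose by 0.25 on its brightest probe set, but its 5 bright probe sets ranged from -0.45 to 0.25 and 2 fell. FIG4 (-0.32) and VAC14 (-0.22), which sit together in the complex that makes PI(3,5)P2, both fell. PIP4K2A (0.35), PIP5K1A (0.32) and the phospholipase PLCD3 (0.37) rose.

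Small-molecule metabolism leaned up in its oxidoreductases and down in its one-carbon enzymes. Aldo-keto and short-chain reductases had 12 rises and 4 falls of 32, with the retinal reductase DHRS3 (0.34) up and the retinol dehydrogenases RDH11 (-0.48) and RDH10 (-0.16) down. The call of RDH10 was lost in 7 of 15 alternatives. Of 10 aldehyde dehydrogenases 5 rose and 2 fell; ALDH3B1 rose by 0.74 and the proline-pathway ALDH18A1 fell by 0.39. Carbonic anhydrases rose in 3 of 4 cases: CA13 (0.47), CA11 (0.38) and CA2 (0.30). Folate, methionine and polyamine enzymes had 8 rises and 14 falls of 39 (5 rises without control replicate 2, without knockdown replicate 1 or without knockdown replicate 3), with MTHFD2 (-0.47), MTR (-0.41), MTHFD1L (-0.37) and GLDC (-0.35) down. PTS, a step of tetrahydrobiopterin synthesis, fell by 1.27, whereas SPR, the next step, rose by 0.13 on its brightest probe set. Averaged over its probe sets, SPR changed by -0.07 and did not pass. In 5 of 15 alternatives the call of SPR was lost, and in 1 its sign turned.

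Carriers of zinc were divided. SLC39A14, which brings zinc and other metals into the cell, read 10.28, 10.33 and 10.27 in the controls and 9.21, 9.23 and 9.22 after knockdown and fell by 1.07 (SE 0.0284, limma adjusted p = 7.06e-06) on both probe sets. SLC30A1, the plasma membrane zinc exporter, rose by 0.40, and the zinc-sensing factor MTF1 rose by 0.28. As a list, zinc transporters and metallothioneins had 5 rises and 5 falls of 25, and 3 rises without control replicate 1, without control replicate 3 or without knockdown replicate 1. The list of mTOR complexes, GATOR, Rag GTPases and sestrins was likewise divided (8 rises and 8 falls of 41, and 7 and 5 without control replicate 1 or without control replicate 3): DDIT4 (-0.88) and SESN2 (-0.59) fell, and SESN1 (0.60), SAMTOR (0.59) and CASTOR1 (0.47) rose.

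Where a gene had several probe sets, they mostly gave 1 sign. Fitted one by one, 37.6% of 27182 bright probe sets passed. Of 7150 genes with 2 or more bright probe sets, 4282 had at least 1 that passed; in 3320 of these (77.5%) all probe sets had 1 sign, and in 120 (2.8%) probe sets passed in opposite directions. Of the 194 genes with 1.5-fold or more, 125 had 2 or more bright probe sets, and 118 of them kept 1 sign. The widest opposite pairs were in SNX5, RAD23B, GIT2, MATCAP2, NABP1 and MXD4. SNX5, a retromer nexin, rose by 0.12 on its brightest probe set, but another, at 9.97, 9.98 and 9.93 in the controls, read 9.05, 8.98 and 8.89 after knockdown and fell by 0.99. In 6 of 15 alternatives the call of SNX5 was lost, and in 1 its sign turned. RAD23B, a shuttle factor for ubiquitinated proteins, ranged from -0.26 to 0.86.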

How the data were processed

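The values were the log2 expression values the authors deposited in the series' value table, 1 column an array, with array medians between 6.53 and 6.55. Per the submitters' processing notes the tool was MAS5; its role and version, the background correction and the scaling are not given in the sources used here, so the level of an array's centre is the authors'. No further normalization was applied. Control probe sets and those annotated with no or several gene symbols were left out of gene counts. Gene names are those of GEO's platform annotation, updated where possible through Entrez identifiers.

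The 3 knockdown and 3 control arrays were compared with limma 3.58.1 in R 4.3.3 (lmFit and eBayes, 2-sided, Benjamini-Hochberg over 11448 genes). Rises and falls have an adjusted p under 0.05. Simulated data used the genes' means and their spreads, the spreads reassigned at random among genes, with 50 genes changed at each size. The fit called 3, 38, 46 and 50 of 50 genes changed by 1.1-, 1.25-, 1.5- and 2-fold, and 7 of 144 calls were false. Far more genes passed in the real data (4657), so these rates need not hold there. Members, gene lists and motifs were chosen with earlier results of these data known, and no list was tested as a set.

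Genes named in the text are USF1, USF2, marker genes, genes past the threshold at 1.5-fold or more whose groups did not overlap, the largest changes of a list (up to 4 each way), and up to 6 genes whose probe sets passed in opposite directions. Others were picked for their role after their values were seen. Alternatives were the dim limit, the probe set used, added intensity, centring, quantile normalization, a trended robust prior, a replicate block and leaving out each array. The 2 UGT1A3 arrays were not used.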

Additional observations from a re-analysis of the deposited data

How the results depend on the processing

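The number of genes that passed lay between 3644 (with no dim filter, and without control replicate 1) and 5657 (every probe set), against 4657. The number at 1.5-fold or more lay between 131 (mean of all probe sets) and 273 (every probe set), against 194. With an array left out they were 3644 to 4365 and 189 to 205. USF1 kept its direction and call wherever it was tested, between -0.33 and -0.46, and was under the dim limit at the 60th percentile, where it was not tested. The share of promoters with CACGTG among genes that did not pass moved from 9.59% to 8.02% with no dim filter and to 10.8% with the limit at the 60th percentile, and opposite probe sets from 2.8% to 3.51% with that limit. With the mean of all probe sets the sign turned for DDX5 (-0.18), IP6K2 (-0.14), SNX5 (-0.17), SPR (-0.070), LAMP2 (0.12), MAGOH (-0.073), SNRNP200 (-0.043) and TFAM (-0.015). Genes that had not passed also turned elsewhere: SNRNP200 with quantile normalization (-0.0045), without control replicate 2 (-0.0075) and without knockdown replicate 2 (-0.0053), MAGOH without control replicate 2 (-0.016), without knockdown replicate 1 (-0.020) and without knockdown replicate 2 (-0.011), and TFAM without knockdown replicate 3 (-0.0037); with an array left out their highest values were 0.016, 0.050 and 0.069. The cause was not tested. Replicate numbers are shared by the groups, but same-numbered arrays deviated together weakly (r of -0.0882, 0.168 and 0.0785), so they were not taken as pairs. With the number as a block 4233 genes passed and 194 at 1.5-fold or more. Signal near the dim limit restricts what LIFR, STING1, CXXC4, LGALS3BP, ZNRF3, GPR155, ZBTB42 and USF1 can show.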

Other observations

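Genes of the Wnt pathway that are neither ligands nor receptors gave several of the larger changes, in both directions. They were picked after their values were seen. ZNRF3, DKK1 and DKK3 are also members of the Wnt list counted below. CTNNBIP1, which binds beta-catenin and keeps it from TCF factors, read 10.37, 10.36 and 10.45 in the controls and 9.20, 9.29 and 9.23 after knockdown and fell by 1.16 on all 4 bright probe sets. The kinase NLK, which acts on TCF factors, fell by 0.64. The receptor-degrading ligase ZNRF3 fell by 0.60, to a knockdown mean of 5.63, at the dim limit. DACT1, a Dishevelled-binding protein, read 8.47, 8.53 and 8.42 in the controls and 9.27, 9.39 and 9.26 after knockdown and rose by 0.83, and CXXC4, another, rose by 0.77 from close to the dim limit. The secreted antagonists DKK1 (-0.53) and DKK3 (0.58) moved in opposite directions. Wnt ligands, Frizzled receptors and antagonists as a list had 8 rises and 6 falls of 25, and 6 and 8 with no dim filter.

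Genes around STING, the adaptor of cytosolic DNA sensing, also moved apart, again picked after their values were seen. STING1 read 6.05, 5.72 and 6.00 in the controls and 6.75, 6.82 and 6.47 after knockdown and rose by 0.76 near the dim limit, and STEEP1, which helps it leave the endoplasmic reticulum, fell by 0.65. TRAF3, a ubiquitin ligase of the same route, fell by 0.63 on its brightest probe set, and 2 of its other probe sets rose. At the nuclear envelope SUN3 (0.70) and SPAG4 (0.62), both SUN-domain proteins, rose, TOR1B read 9.87, 9.79 and 9.82 in the controls and 8.91, 8.85 and 8.81 after knockdown and fell by 0.97, and its paralogue TOR1A rose by 0.13, a call lost in 10 of 15 alternatives. At the transition zone of the cilium TMEM216 (-0.64) and TMEM17 (-0.64) fell by similar amounts.

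Using 1 probe set a gene left some changes out of the gene counts. Of 414 bright probe sets that passed at 1.5-fold or more, 22, in 21 genes, belonged to genes whose brightest probe set did not pass. The widest was in RAP1A, where a probe set at 7.8, 7.92 and 7.91 in the controls read 10.33, 10.39 and 10.34 after knockdown (2.48), while the gene's brightest changed by 0.05. QKI (0.95 against 0.09), RBMS2 (-0.89 against -0.03) and DDX5 (-0.79 against 0.01) followed this pattern. Probe sets annotated with no symbol, 1304 above the limit, passed in 37.4% of cases against 37.5% of those with 1 symbol. Of 118 tested long noncoding RNA genes 25.4% passed, and none by 1.5-fold or more.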
